A study of Penicillium oxalicum with 9 samples.

Results

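Cel6A (PDE_07124) and CBHI/Cel7A-2 (PDE_07945) are the 2 genes of Penicillium oxalicum that the deposited gene table describes as named cellobiohydrolases. They were chosen by locus number and are 2 of the 9786 genes in the table. This soil mould is grown for its secreted cellulases and hemicellulases. RNA sequencing measured transcripts in 9 cultures of 3 strains, whose titles name a deleted PoflbC, PoClrC or CA. Written dPoflbC, dPoClrC and dCA below, each strain had biological triplicates. Every culture was kept in Vogel's salts (30 °C, 200 rpm), passed from 2% glucose (22 h) through a carbon-free step (2 h) into 2% cellulose (4 h), and was harvested by filtering. With no unmutated strain to compare with, each comparison sets deletion strains against each other. The labels do not explain CA or say how many clones stand behind a strain, and the deletions were not checked here, since the annotation of 0 genes names flbC or clrC.

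Cellobiohydrolases travel along a cellulose chain from its end and release the disaccharide cellobiose. Enzymes of the Cel7A type start at the reducing end and those of the Cel6A type at the non-reducing end, and endoglucanases make new chain ends for both by cutting within the chain. Beta-glucosidases then split cellobiose to glucose. In filamentous fungi on cellulose, cellobiohydrolases are known as main components of the secreted cellulase mixture, and their genes are held down by glucose through the repressor CreA and switched on by activators such as XlnR and ClrB. Neither position nor sequence of the genes was used here. The coding lengths in the table are 1395 bases for Cel6A and 1641 bases for Cel7A-2.

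The libraries held 6491000 to 7756000 reads in genes (to the nearest 1000), and both genes passed the filter on low counts. Cel6A had 104 to 5970 reads per library and Cel7A-2 had 1006 to 35629. Reads covered 96.34% to 99.86% of the coding length of Cel6A and 99.88% to 99.94% of that of Cel7A-2, by the authors' deposited coverage values. Levels are given as RPKM (reads per kilobase of coding length, scaled to the reads of the library), which allows levels to be compared between genes, with n = 3 per strain. Among the dCA libraries, replicate 2 lay apart. Its scaling factor was 0.680 against 0.906 and 0.869, and the chi-square statistic of its counts against those of dCA replicates 1 and 3 was 175 and 160 per gene, compared with 20.5 between those libraries. The log2 fold changes of the cellobiohydrolases against dCA are therefore also given without that library. In bulk RNA, fewer hyphae with the transcript and less transcript per hypha cannot be told apart.

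Cel6A was lowest in dPoflbC, intermediate in dPoClrC and highest in dCA. In dPoflbC replicates 1, 2 and 3 it was at 10.2, 17.7 and 19.2 RPKM. In dPoClrC its levels were 35.9, 40.3 and 53.8 RPKM. In dCA they were 142, 578 and 299 RPKM. No library of a strain overlapped with those of the next strain in this order, so all 9 values were ordered by strain. Such separation was common among the 8681 genes tested below, by their scaled levels. Of these, 34.8% lay entirely lower in dPoflbC than in dPoClrC, and 26.3% entirely lower in dPoClrC than in dCA. The means of Cel6A were 15.7 ± 4.83, 43.3 ± 9.37 and 340 ± 221 RPKM (SD, n = 3). Ranked by RPKM among the 9786 genes, Cel6A was between places 5878 and 7109 in dPoflbC, between 2901 and 3957 in dPoClrC, and between 222 and 1207 in dCA.

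Cel7A-2 followed another order, with dPoClrC lowest, dPoflbC intermediate and dCA highest. Its levels were 91.0, 143 and 133 RPKM in dPoClrC replicates 1, 2 and 3. In dPoflbC they were 233, 326 and 422 RPKM. In dCA they were 558, 2935 and 982 RPKM. Again no library overlapped with those of the next strain, but the lowest and intermediate strains had changed places relative to Cel6A. By scaled levels, 34.9% of the genes tested lay entirely higher in dPoflbC than in dPoClrC, and 37.2% entirely lower in dPoflbC than in dCA. The means of Cel7A-2 were 122 ± 27.6, 327 ± 94.6 and 1492 ± 1267 RPKM (SD, n = 3). Cel7A-2 was between places 1284 and 1911 of all genes in dPoClrC, between 423 and 809 in dPoflbC, and between 48 and 252 in dCA. In every library its level was above that of Cel6A.

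**Figure D1:**
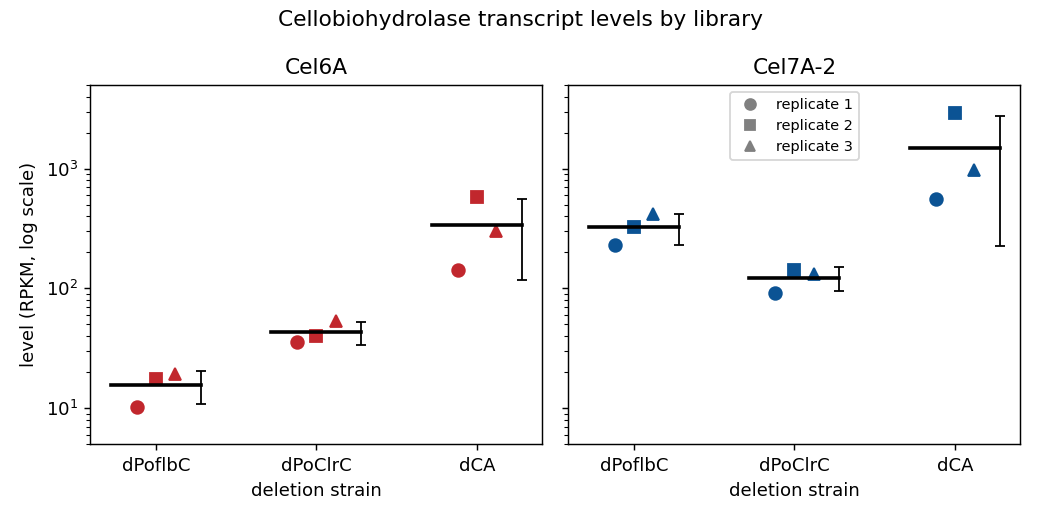
Levels of Cel6A and Cel7A-2 in RPKM on a log axis, 1 point per library, with the strain mean as a horizontal line and the SD as an error bar (n = 3). Cel6A runs from 10.2 to 578 RPKM and is lowest in dPoflbC, while Cel7A-2 runs from 91.0 to 2935 RPKM and is lowest in dPoClrC.

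The spread between replicates was widest in dCA for both genes. There the highest library was 4.08 times the lowest for Cel6A and 5.26 times for Cel7A-2. In dPoClrC these ratios were 1.5 and 1.57, and in dPoflbC they were 1.89 and 1.81. In dCA the same libraries were lowest and highest for both genes, replicate 1 and replicate 2. Among the 18 cellulases described further on, Cel7A-2 and Cel6A had the highest levels in dCA replicate 2 relative to the mean of dCA replicates 1 and 3, at 3.81 and 2.62 times that mean. The endoglucanases Cel5C (PDE_09969) and Cel5A (PDE_00507) followed at 1.79 and 1.61 times, while the cellulose monooxygenase Cel61A (PDE_05633) was at 0.569 times. Over 8744 genes with a mean of 1 RPKM or more in those 2 libraries, the median was 0.754 times. The cellobiohydrolases thus lay above 99.4% (Cel7A-2) and 99.0% (Cel6A) of these genes.

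The comparison of dPoflbC with dCA asks how transcripts on cellulose differed between these deletion strains. Cel6A and Cel7A-2 both fell in dPoflbC. After scaling of the libraries by the trimmed mean of M-values (TMM), the log2 fold change from edgeR's quasi-likelihood test was -5.13 ± 0.59 (SE) for Cel6A, with a Benjamini-Hochberg adjusted p of 4.09e-05 over the 8681 genes tested. For Cel7A-2 it was -2.91 ± 0.63 (adjusted p = 0.00245). RPKM values, here and below, do not carry the TMM scaling. Its factors differed by strain, at 1.20 to 1.24 in dPoflbC, 0.988 to 1.03 in dPoClrC and 0.680 to 0.906 in dCA. Ratios of RPKM means therefore differ in size from the log2 fold changes of edgeR. A gene is said to rise or fall, or to be called, where the adjusted p was under 0.05 and the log2 fold change 1 or more in size. In this comparison 15.8% of the genes tested fell, 11.4% rose and 37.2% had scaled levels in dPoflbC entirely below those in dCA, as both cellobiohydrolases did. Of the genes tested, 0.91% had a lower log2 fold change than Cel6A and 3.33% a lower one than Cel7A-2. Without dCA replicate 2 the log2 fold changes were -4.26 (adjusted p = 2.51e-06) and -1.68 (adjusted p = 0.000805). With no scaling they were -4.44 and -2.19, and the median of all genes moved from -0.07 to 0.51; relative to these medians the changes of Cel6A and Cel7A-2 with no scaling were -4.95 and -2.70.

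In dPoClrC against dCA both genes fell as well, and Cel7A-2 had the lower value. Its log2 fold change was -4.05 ± 0.66 (SE; adjusted p = 0.00135, edgeR), beside -3.39 ± 0.54 for Cel6A (adjusted p = 0.00122). Of all genes tested 7.35% fell and 5.69% rose in this comparison, and 26.3% had scaled levels in dPoClrC entirely below those in dCA. Of the genes tested, 0.553% had a lower value than Cel7A-2 and 0.899% a lower one than Cel6A. Without dCA replicate 2 the log2 fold changes were -2.83 (adjusted p = 9.44e-05) for Cel7A-2 and -2.53 (adjusted p = 0.000212) for Cel6A. This comparison shares its dCA libraries with the previous one, so the values of both comparisons move together with those libraries.

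The comparison of dPoflbC with dPoClrC uses no dCA level, and here the log2 fold changes of the cellobiohydrolases had opposite signs. Cel6A fell in dPoflbC, with a log2 fold change of -1.74 ± 0.53 (SE; adjusted p = 0.017, edgeR), in a comparison in which 13.6% of all genes fell, 9.05% rose and 34.8% lay entirely lower in dPoflbC. For Cel7A-2 the log2 fold change was 1.14 ± 0.59 and was not called over all 9 libraries (adjusted p = 0.123). Its scaled levels in dPoflbC nevertheless lay entirely above those in dPoClrC, as did those of 34.9% of the genes tested. The test takes its spread from all 3 strains. In a fit of dPoflbC and dPoClrC alone the log2 fold change was 1.15 ± 0.24 and called (adjusted p = 0.00239), and without dCA replicate 2 it was 1.15 ± 0.28 and called (adjusted p = 0.00464). It was also called without dCA replicate 1 (adjusted p = 0.0462). The call of Cel6A was lost without dPoflbC replicate 1 (adjusted p = 0.066) and without dPoClrC replicate 3 (adjusted p = 0.0554).

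**Figure D2:**
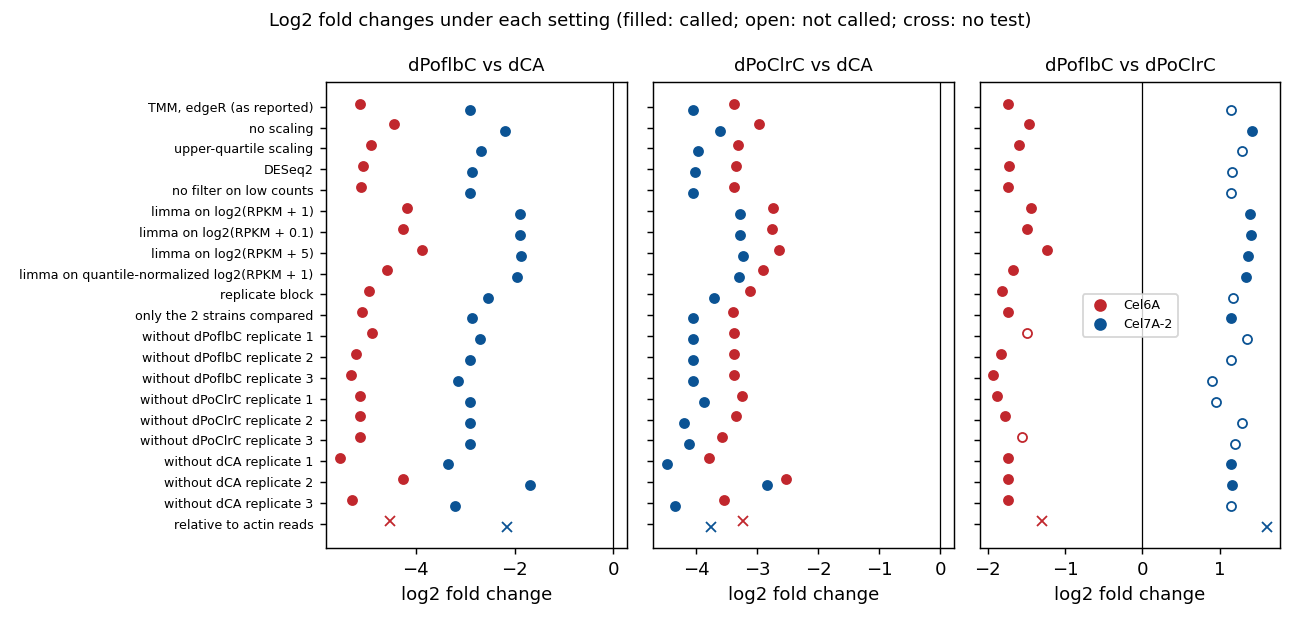
Log2 fold changes of Cel6A and Cel7A-2 in the 3 comparisons under each setting, filled where called, open where not called and crossed where no test was made. In dPoflbC against dPoClrC every point of Cel6A lies below 0, from -1.93 to -1.24, and every point of Cel7A-2 above 0, from 0.90 to 1.61.

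The unequal change of these genes was measured by the ratio of their RPKM within each library, which does not depend on how libraries are scaled against each other. In dPoflbC replicates 1, 2 and 3 the level of Cel6A was 4.37%, 5.42% and 4.55% of that of Cel7A-2. In dPoClrC it was 39.4%, 28.2% and 40.6%. In dCA it was 25.4%, 19.7% and 30.5%. All dPoflbC libraries lay below all others, and the ranges of dPoClrC and dCA overlapped. The means were 4.78% ± 0.561, 36.1% ± 6.87 and 25.2% ± 5.38 (SD, n = 3). In other terms, Cel7A-2 was at 18.5 to 22.9 times the level of Cel6A in dPoflbC, at 2.46 to 3.55 times in dPoClrC and at 3.28 to 5.07 times in dCA.

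The log2 ratio differed between the 3 strains by an exact permutation test over the 1680 assignments of the libraries to strains (p = 0.00714, where the smallest possible is 0.00357), and 97.1% of its sum of squares lay between strains. The mean log2 ratio in dPoflbC differed from that in dCA by -2.38 ± 0.21 (SE) and from that in dPoClrC by -2.90 ± 0.19. For each of these pairs the two-sided exact permutation test gave p = 0.1, the smallest that 3 libraries against 3 allow (adjusted p = 0.15 over the 3 pairs). Between dPoClrC and dCA the difference of 0.52 ± 0.25 had p = 0.2 by the exact permutation test (adjusted p = 0.2). The ratio varied less between replicates than the levels did: in dCA its highest value was 1.55 times its lowest, compared with 4.08 and 5.26 times for the levels. Without any one library the permutation p over the 3 strains was 0.00714 to 0.0107.

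**Figure D3:**
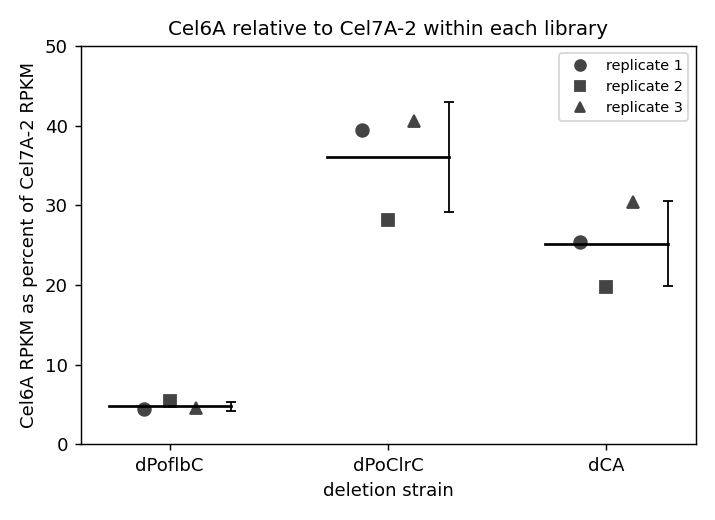
Level of Cel6A as a percentage of that of Cel7A-2 in the same library, 1 point per library, with the strain mean as a line and the SD as an error bar (n = 3). The dPoflbC libraries lie at 4.37% to 5.42%, below the 19.7% to 40.6% of the other strains.

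The other genes of cellulose breakdown were taken from a list of 18 cellulases found by search words in the descriptions and KEGG (pathway database) entries, of which the cellobiohydrolases are 2. Of the other 16, 11 fell and 2 rose in dPoflbC against dCA, where 15.8% of all genes tested fell and 11.4% rose. The median log2 fold change of these 16 was -2.90, where the median of all genes was -0.07. Counted from the lowest log2 fold change, Cel6A was at place 2 of the 18, after Cel61A, which was at 0.0573 ± 0.0993 RPKM in dPoflbC. This place rested on dCA replicate 2 and on the method: without that library Cel6A (-4.26) was at place 6, behind Cel45A (-4.55) and Cel7B (-4.39) among others, and over all settings it was between places 2 and 6. Cel7A-2 was close to the median of the others. Among the endoglucanases the log2 fold change was -4.66 for Cel7B (PDE_07929), -4.81 for Cel45A (PDE_07928), -4.37 for Cel5A and -4.59 for Cel5C, and all 4 fell. With both cellobiohydrolases counted, 13 of the 18 fell, and 13 did so without dCA replicate 2.

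In dPoClrC against dCA the cellobiohydrolases had the lowest values of all 18, below those of the other 16, and kept places 1 (Cel7A-2) and 2 (Cel6A) in all 19 alternatives. Of these 16, 6 fell and 1 rose, with a median log2 fold change of -0.48 and a lowest value of -2.11 (Cel5C). Of all genes tested, 7.35% fell and 5.69% rose in this comparison. Cel7B was at 418 ± 94.6 against 1096 ± 195 RPKM, and its TMM-scaled log2 fold change was -1.73. Cel45A was at 563 ± 138 against 1196 ± 173 RPKM, with a TMM-scaled log2 fold change of -1.42. Both endoglucanases fell; their log2 fold changes were nearer to 0 than those of the cellobiohydrolases, and these differences between genes were not tested.

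In dPoflbC against dPoClrC Cel7A-2 had the highest value of the 18, place 18, and was at place 17 in 3 of 19 alternatives. In the fit of these strains alone only 17 cellulases were tested, so that place 17 was again the highest. It was second highest without dPoflbC replicate 3 and without dPoClrC replicate 1. Of the other 16 cellulases, 9 fell, where 13.6% of all genes tested fell and 9.05% rose. The median log2 fold change of these 16 was -2.02, with values from -8.65 to 0.97. By edgeR 0 of them rose, while 2 were higher at an unadjusted p under 0.05, and DESeq2 called 0 and limma 1 higher. Cel7B was at 66.4 ± 26.3 against 418 ± 94.6 RPKM, with a TMM-scaled log2 fold change of -2.93 (adjusted p = 6.48e-05, edgeR). Cel45A was at 65.2 ± 18.1 against 563 ± 138 RPKM (-3.39). Cel6A, with -1.74, lay near the middle of the list.

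**Figure D4:**
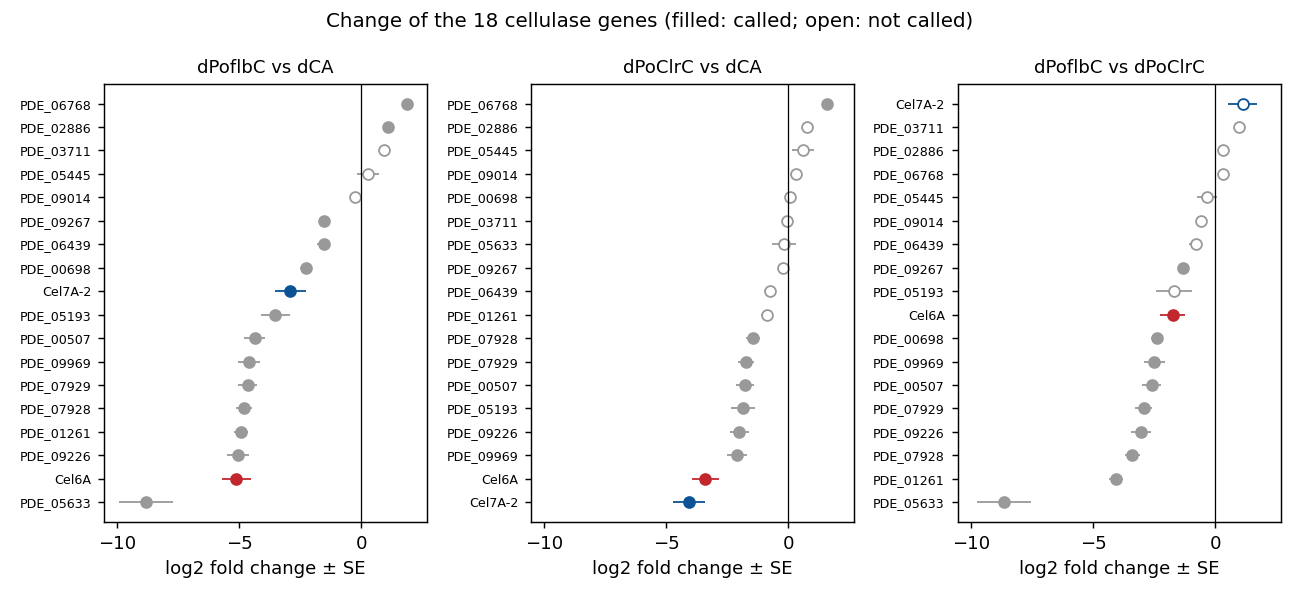
Log2 fold changes with their SE of the 18 cellulase genes in each comparison, ordered by size, with Cel6A in red, Cel7A-2 in blue and filled points where the gene was called. Cel7A-2 moves from the lowest place in dPoClrC against dCA (-4.05) to the highest in dPoflbC against dPoClrC (1.14).

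The share of the cellobiohydrolases was also taken within the summed RPKM of the 18 cellulases. Cel7A-2 made up 17.8%, 21.4% and 26.2% of that sum in dPoflbC replicates 1, 2 and 3, and 3.64%, 4.23% and 3.66% in dPoClrC. In dCA its share was 11.2%, 33.0% and 14.7%. The dPoClrC libraries lay below all others, while those of dPoflbC and dCA overlapped. Cel7A-2 was the second highest cellulase of each dPoflbC library, place 6 or 8 in dPoClrC and place 1 or 4 in dCA. Cel6A made up 0.779% to 1.19% of the sum in dPoflbC, 1.19% to 1.49% in dPoClrC and 2.84% to 6.50% in dCA. The sum itself was 1478 ± 156 RPKM in dPoflbC, 3167 ± 589 in dPoClrC and 6857 ± 1960 in dCA (SD, n = 3).

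PDE_05445, described as a putative cellobiohydrolase, had few reads in all strains. It had 10 to 18 reads per library in dPoflbC, 7 to 17 in dPoClrC and 3 to 11 in dCA. Its means were 1.37 ± 0.428, 1.41 ± 0.566 and 0.761 ± 0.411 RPKM, and it was called in none of the 3 comparisons (adjusted p of 0.316 to 0.622, edgeR). The ranges of the strains overlapped. The table's header calls the counts unique reads, and how alike these genes are in sequence was not examined.

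Genes upstream and downstream of cellobiohydrolase action were read from further lists. The activator XlnR (PDE_07674) was at 19.5 ± 1.06 RPKM in dPoflbC, 35.0 ± 3.93 in dPoClrC and 38.8 ± 5.04 in dCA. It fell in dPoflbC against dCA (-1.58) and against dPoClrC (-1.12), and was not called in dPoClrC against dCA (-0.46). Neither change of XlnR was called with no scaling or with limma on log2(RPKM + 1), and that against dPoClrC was also lost with upper-quartile scaling. The activator ClrB (PDE_05999) was at 70.1 ± 10.2, 83.3 ± 7.51 and 99.0 ± 7.17 RPKM, and fell in dPoflbC against dCA (-1.10), a call lost in 8 of 19 alternatives, among them no scaling, upper-quartile scaling, every limma fit, and the fits without dCA replicate 2 and without dPoflbC replicate 1. The repressor CreA (PDE_03168) was at 243 ± 17.0, 212 ± 31.2 and 213 ± 21.0 RPKM in dPoflbC, dPoClrC and dCA. These RPKM values were highest in dPoflbC, but once scaled by TMM all dPoflbC levels of CreA were below those of dCA. The same held for 37.2% of the genes tested. By edgeR the change of CreA in dPoflbC against dCA was -0.40 (adjusted p = 0.0195), below the size needed for a call. Scaled CreA levels of dPoClrC were also all below those of dCA (-0.32, adjusted p = 0.0729, edgeR), as were those of 26.3% of the genes tested. Between dPoflbC and dPoClrC the CreA value was -0.08. Like HAC1 (PDE_01436), which in yeast switches on the response to unfolded secreted proteins, CreA was called in no comparison. By edgeR and DESeq2, 2 of these 4 regulators fell in dPoflbC against dCA and 1 of 4 in dPoflbC against dPoClrC, while limma on log2(RPKM + 1) called 0 in both. Of all genes tested by edgeR, 15.8% and 13.6% fell in these comparisons. At an unadjusted p under 0.05 by edgeR, 3 and 2 of the 4 were lower there. In dPoClrC against dCA edgeR called 0 of 4, where 3 were lower at an unadjusted p under 0.05, and DESeq2 and limma also called 0.

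The swollenin PDE_02102, of a family known to loosen cellulose without cutting it, was at 23.6 ± 1.08 RPKM in dPoflbC, 535 ± 241 in dPoClrC and 1416 ± 176 in dCA, and was called in each comparison, in the strain order of Cel6A. CdtC (PDE_00607) and CdtD (PDE_00753) are cellodextrin transporters, which take up soluble products of cellulose breakdown. In dPoflbC both fell against dCA (-1.67 and -2.19) and against dPoClrC (-1.41 and -2.04). In dPoClrC against dCA they were not called (-0.25 and -0.15), and CdtG (PDE_09395) was called in no comparison. Of 17 genes tested from a search-word list of beta-glucosidases, 8 fell in dPoflbC against dCA, 1 in dPoClrC against dCA and 5 in dPoflbC against dPoClrC. In these comparisons 15.8%, 7.35% and 13.6% of all genes fell. EdgeR and DESeq2 called 0 higher in any of the 3. At an unadjusted p under 0.05 by edgeR, 3, 5 and 0 were higher and 9, 5 and 9 lower. The counts of called genes depended on the scaling. With no scaling 4, 0 and 4 were called lower and 3, 1 and 0 higher. By limma on log2(RPKM + 1), 4, 0 and 4 were called lower and 2, 1 and 0 higher. The search words also drew genes described as glucanases, a glucanosyltransferase and putative beta-xylosidases into this list, and the counts include them. Among these, PDE_00310 (glucanase) and PDE_09710 (beta-xylosidase) fell in dPoflbC against dCA, and PDE_09710 also fell in dPoflbC against dPoClrC. The 1 gene of the list that fell in dPoClrC against dCA was BGL1 (PDE_02736), at 137 ± 23.4 against 244 ± 73.9 RPKM (-1.21). At 150 ± 30.7 RPKM in dPoflbC it also fell there against dCA (-1.35). Without dCA replicate 2 neither change of BGL1 was called (-0.74 and -0.88). BGL2 (PDE_00579) was at 191 ± 38.8 RPKM in dPoflbC, 454 ± 104 in dPoClrC and 633 ± 71.5 in dCA.

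The genes most like each cellobiohydrolase over the 9 libraries differed between them. Likeness was measured as the root mean square difference of scaled log2 CPM (reads scaled to library size), each gene centred on its mean, so that 0 means the same pattern. For Cel6A the closest of 8680 genes was PDE_05239, whose KEGG entry is a catechol dioxygenase, at 0.53. It was at 25.6 ± 6.0 RPKM in dPoflbC, 104 ± 11.8 in dPoClrC and 481 ± 283 in dCA. The endoglucanase Cel5C followed at 0.56, with 25.3 ± 8.34, 117 ± 21.0 and 389 ± 174 RPKM. The others were PDE_09947 (KEGG triacylglycerol lipase, 0.56), PDE_01370 (KEGG tryptophan synthase beta chain, 0.57) and the hypothetical protein PDE_06061 (0.58). In dPoflbC, PDE_01370 was at only 2.25 ± 0.67 RPKM. PDE_06061 was at 0.24 ± 0.21 RPKM in dPoflbC, 1.31 ± 0.33 in dPoClrC and 8.17 ± 4.18 in dCA. Its call in dPoflbC against dPoClrC was lost in 8 of 18 alternatives. All 5 had their lowest mean RPKM in dPoflbC and their highest in dCA, as Cel6A did. They were picked for likeness to Cel6A over the same 9 libraries, so the shared order is no separate result.

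For Cel7A-2 the closest gene was PDE_00873, whose KEGG entry is a phosphoheptulonate synthase of aromatic amino acid synthesis, at 0.45. It was at 156 ± 17.4 RPKM in dPoflbC, 65.8 ± 5.72 in dPoClrC and 811 ± 935 in dCA. The next 4, PDE_05788 (0.50), PDE_01200 (0.53), PDE_02063 (0.56) and PDE_03776 (0.58), are hypothetical proteins, each lowest in dPoClrC and highest in dCA by mean RPKM. This order, too, comes with the choice by likeness. For PDE_05788 and PDE_01200 the scaled levels of dPoClrC and dPoflbC overlapped. Cel7A-2 itself was place 183 of 8680 in likeness to Cel6A, at a difference of 1.27, and Cel6A was place 442 in likeness to Cel7A-2. Between Cel6A and all genes the median difference was 2.10, and between Cel7A-2 and all genes it was 1.71. These places are descriptions of 9 libraries that share their strain and, in dCA, the wide spread of replicate 2. Without dCA replicate 2, 1 of the 5 genes named for Cel6A and 2 of the 5 named for Cel7A-2 were still among the closest 5.

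**Figure D5:**
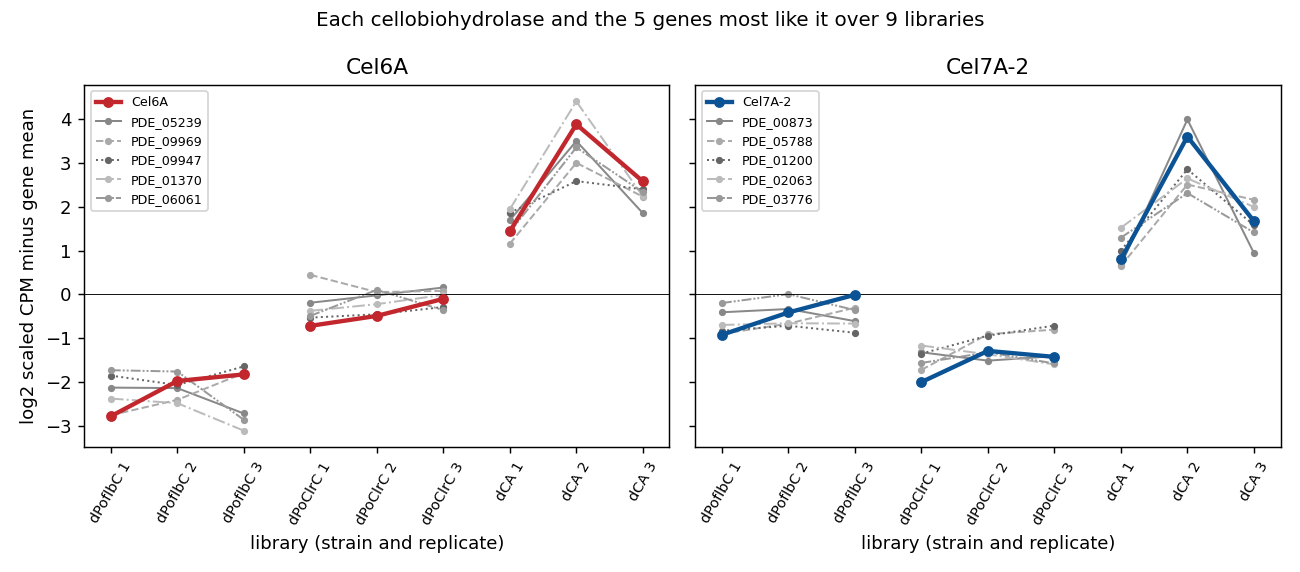
Scaled log2 CPM of Cel6A, Cel7A-2 and the 5 genes most like each, minus the mean of each gene, in the 9 libraries by strain and replicate. The curves of Cel6A and its 5 genes step up from dPoflbC to dPoClrC to dCA. Those of Cel7A-2 and its 5 genes peak in dCA replicate 2. Cel7A-2 is lowest in dPoClrC, while PDE_05788 and PDE_01200 overlap between dPoClrC and dPoflbC.

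Genes with neighbouring locus numbers were described beside the cellobiohydrolases. Locus numbers are names, and positions on the genome were not used here. Of the 9 genes in the table within 5 numbers of Cel6A, edgeR called 0 in dPoflbC against dCA, DESeq2 and limma called 1 each, and 3 were higher at an unadjusted p under 0.05. PDE_07120, PDE_07121 and PDE_07122 rose in dPoClrC against dCA (2.09, 1.64 and 1.75), where Cel6A fell and 5.69% of all genes tested rose. In dPoflbC against dPoClrC, PDE_07120 (-1.96) and PDE_07122 (-2.16) fell, while PDE_07126 (1.05) and PDE_07127 (1.20) rose. Of all genes tested, 13.6% fell in this comparison, Cel6A among them, and 9.05% rose. Of the 8 genes tested within 5 numbers of Cel7A-2, PDE_07946 and PDE_07947 fell in dPoflbC against dCA (-1.41 and -1.62). Of all genes tested, 15.8% fell in that comparison, Cel7A-2 among them, and 11.4% rose. The KEGG entries of PDE_07946 and PDE_07947 are a catechol dioxygenase and a muconate cyclase. In dPoflbC against dPoClrC, where Cel7A-2 had a value above 0, PDE_07947 (-1.22) and PDE_07940 (-2.15) fell. With limma on log2(RPKM + 1) the calls of PDE_07120, PDE_07940, PDE_07946 and PDE_07947 were lost. Over all settings PDE_07120 ran from 0.27 to 2.69 in dPoClrC against dCA. In dPoflbC against dPoClrC it ran from -2.60 to -0.23, and PDE_07940 from -2.32 to -0.28. The call of PDE_07126 was lost in 4 of 19 alternatives, that of PDE_07127 in 2 and that of PDE_07121 in 1.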

How the data were processed

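Per the labels' protocols, RNAiso reagent was used to extract mycelial RNA, and Illumina's standard library preparation was applied. CASAVA 1.8 is named in the submitters' processing notes, while aligner, counter, genome build and annotation release are not stated in the labels or file headers. The authors deposited whole counts of unique reads per gene, RPKM, and the percent of the gene length covered by reads, for 9 libraries. In the deposited table each of the 9 count columns sums to its header total, RPKM follows from counts, length and total, and a dash was read as 0.

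Strains came from the sample titles. Counts were tested with edgeR 4.0.16 (R 4.3.3): filterByExpr kept 8681 genes, libraries were scaled by TMM (factors 0.680 to 1.24), and glmQLFit and glmQLFTest were run on all 9 libraries with a mean for each strain and without a replicate block. P-values were adjusted by Benjamini-Hochberg within a comparison. The SE is the log2 fold change divided by the root of the F statistic. The script was tested on simulated data. Alternatives used DESeq2 1.42.0 and limma 3.58.1. Log ratios were compared by exact permutation tests in Python 3.11.15. Biological triplicates per the series' text are taken as separate cultures. The named genes were the cellobiohydrolases, the 5 genes most like each, list members with a gene name, other putative cellobiohydrolases, and neighbours within 5 locus numbers called in the direction of the cellobiohydrolase; genes named beyond these were chosen after their values were seen. The members and lists were chosen with earlier results of these data known. The reference gene table is of another strain and matched 0 locus numbers.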

Additional observations from a re-analysis of the deposited data

How the results depend on the processing

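In dPoflbC against dCA and in dPoClrC against dCA, Cel6A and Cel7A-2 kept their direction and their call under every alternative that gave a test. With limma and a pseudocount of 5 RPKM their log2 fold changes were nearest to 0 among the alternatives that kept all libraries of both strains, at -3.87 and -1.87 against dCA in dPoflbC and -2.63 and -3.24 in dPoClrC. In dPoflbC against dPoClrC, Cel7A-2 was called with no scaling (1.42, adjusted p = 0.0306), with limma on log2(RPKM + a pseudocount of 1, 0.1 or 5) (1.40, 1.40 and 1.37), with quantile normalization (1.34) and in the fit of these strains alone (1.15), and was not called with upper-quartile scaling, DESeq2 (adjusted p = 0.159), no filter or the replicate block. Leaving out each library gave 0.90 to 1.35 for Cel7A-2 and -1.93 to -1.5 for Cel6A. Relative to actin reads, with no test, the values were 1.61 for Cel7A-2 and -1.29 for Cel6A; the cause was not tested. Actin itself had a log2 fold change of -0.48 in this comparison. Counts of called genes moved by less than 1.5 times, but with no scaling the split in dPoflbC against dCA changed from 988 higher and 1368 lower to 2272 and 757, in dPoClrC against dCA from 494 and 638 to 887 and 454, and in dPoflbC against dPoClrC from 786 and 1179 to 1289 and 876. The ratio of Cel6A to Cel7A-2 kept its direction throughout. Same-numbered libraries were not treated as pairs, since the labels state no design beyond biological triplicates. As a description, the deviations of same-numbered libraries from their strain means correlated at -0.18 to 0.12. The 3 pairs of dPoflbC and dPoClrC were positive (0.11, 0.098 and 0.067), and 5 of 9 libraries correlated best with their own number, so that some sharing between these libraries was not excluded. With the replicate block the log2 fold changes were -4.94 and -2.55, -3.12 and -3.71, and -1.82 and 1.17 (Cel6A and Cel7A-2, in the order of the comparisons), no call changed, and the permutation p of the ratio over 3 strains was 0.0278, the smallest the block allows. Of the 5 genes most like each cellobiohydrolase, 0 were among the closest 5 by Pearson correlation. Of 62 changes of other named genes that were called, 46 kept the call in every setting, 16 lost it in at least 1 and 0 reversed, in alternatives chosen after seeing the data.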

Other observations

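Cel7A-2 and the endoglucanase Cel7B, which belong to the same enzyme family but act at the end of and within the chain, had unlike ratios in the 3 strains. The level of Cel7A-2 was 4.42 to 5.42 times that of Cel7B in the dPoflbC libraries and 0.270 to 0.316 times in the dPoClrC libraries. In dCA it was 0.640, 2.38 and 0.832 times in replicates 1, 2 and 3. The ranges of the strains did not overlap. The level of Cel6A was 0.201 to 0.294 times that of Cel7B in dPoflbC, 0.0889 to 0.115 times in dPoClrC and 0.163 to 0.469 times in dCA, so that dPoflbC and dCA overlapped and dPoClrC lay below. This pair was chosen after its values were seen and was not tested.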
